A study of Mus musculus with 4 samples.

Results

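The urea cycle turns ammonia into urea in the liver, and the genes described here are its enzymes, the 2 mitochondrial carriers that feed it and the liver glutaminase that supplies ammonia to it. The members were the 9 genes Cps1, Otc, Ass1, Asl, Arg1, Nags, Slc25a15, Slc25a13 and Gls2, and every probe set that names 1 of them alone was taken. That gave 11 of the 45037 probe sets on the array, for 8 of the 9 genes. Gls2 was not analysed here. All 11 probe sets passed the filter on low values.

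The Cnot3KO livers came from C57BL/6 mice aged 4 weeks in which floxed Cnot3 alleles were removed by Cre recombinase under the albumin promoter, which is active in the hepatocyte lineage and leaves Cnot3 in the endothelial, stellate and blood cells of the liver. The Control livers came from C57BL/6 mice of the same age labelled wild type, and the study's methods allow a Control animal to carry Cre or floxed alleles without the full deletion. Cnot3 encodes a subunit of the Ccr4-Not deadenylase, an enzyme complex that trims poly(A) tails and so starts the decay of mRNAs. Total RNA of 2 Cnot3KO livers and 2 Control livers was hybridized to 1 array each of a 3' expression array for the mouse genome. In whole livers, fewer cells of a type and less RNA per cell cannot be told apart.

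In the cycle, Cps1 joins ammonia and bicarbonate to carbamoyl phosphate inside the mitochondrion, and Otc transfers that group to ornithine to give citrulline. In the cytosol Ass1 adds aspartate, Asl splits off fumarate and leaves arginine, and Arg1 releases urea and returns ornithine. Hepatocytes around the portal vein carry most of the cycle, whereas a thin layer around the central vein takes up the ammonia that escapes and fixes it as glutamine through Glul.

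Values are log2 RMA intensities, where 1 unit is a 2-fold difference, and differences are Cnot3KO minus Control with the standard error (SE) and n = 2 livers in each group. A probe set was called at an adjusted p under 0.05, adjusted over 38405 kept probe sets. Cnot3 itself gave 5.15 and 5.30 in Cnot3KO livers and 5.99 and 6.04 in Control livers, a difference of -0.79 ± 0.16 (adjusted p = 0.0372). Its other probe set gave -0.40 (adjusted p = 0.218), and the position of either probe set relative to the deleted exons is not given in the sources used here. The call of Cnot3 was lost without any 1 of the 4 arrays (adjusted p = 0.0885 to 0.211). Rplp0, a ribosomal protein gene, differed by 0.07. The plasma protein genes of hepatocytes marked all 4 samples as liver, with Alb, the gene of serum albumin, at 13.74 and 13.79 in Cnot3KO livers and 13.84 and 13.73 in Control livers, and limma called 0 of 13 such genes (at an unadjusted p under 0.05, 2 lower and 1 higher). Of markers of other cells, 8 of 12 for stellate cells and fibroblasts were called higher and 3 of 6 for erythroid cells lower. Of all genes 12.2% were called higher and 4.64% lower. Limma called 0 of 9 markers of sinusoidal endothelium (0 without adjustment) and 0 of 8 of lymphocytes (1 lower and 1 higher without adjustment). Arrays of 1 group correlated at 0.989 in Cnot3KO and 0.981 in Control livers.

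Most urea cycle probe sets did not pass the test, and the calls fell on single probe sets of Otc and Ass1, both lower in Cnot3KO livers. Of the 11 member probe sets 2 were called lower in Cnot3KO livers (18.2%), against 4.78% of all kept probe sets. By limma 0 were called higher, against 8.48% of all kept probe sets. Without adjustment, limma's p was under 0.05 for 4 lower probe sets and 1 higher. Each gene was then represented by its brightest probe set naming it alone. By this rule 1 of 8 member genes, Ass1, was called lower (4.64% of all 16758 genes) and 0 were called higher (12.2% of all genes). A brighter probe set that names Ass1 together with Gm5424 was not called by limma (adjusted p = 0.928). One gene of 8 is 12.5%, so the share of so few members cannot be set apart from the background. The median difference of the 8 genes was -0.05, against 0.00 over all genes. The arrays of the groups did not overlap for 5 of 11 probe sets (45.5%), against 62.8% of all kept probe sets.

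**Figure D1:**
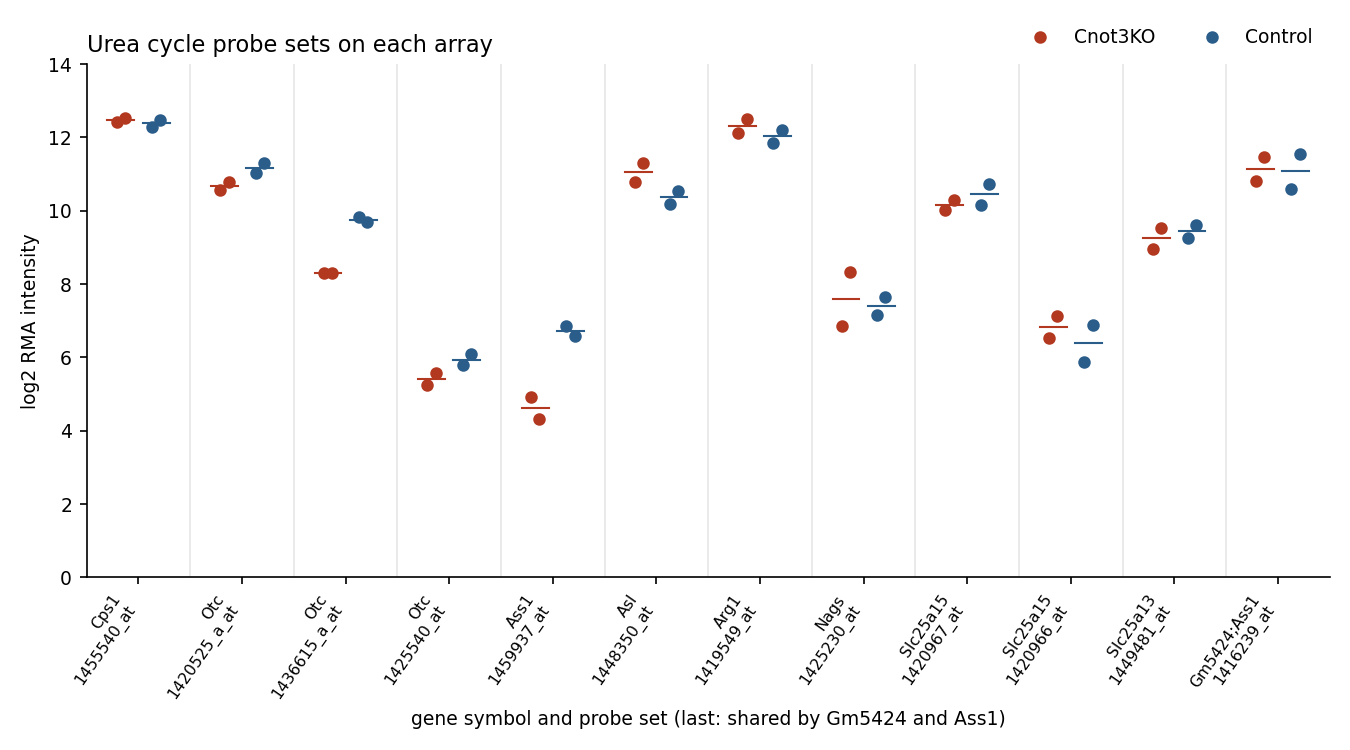
Log2 RMA intensity (vertical axis) of each urea cycle probe set on the 4 arrays, Cnot3KO livers left in red and Control livers right in blue, with 1 point per array and a line at each group mean. The last column is the probe set shared by Ass1 and Gm5424, and the widest gaps between the groups are at Ass1 1459937_at and Otc 1436615_a_at.

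Cps1, the first and rate-limiting enzyme of the cycle, differed by less than the gap between the 2 Control livers. Its probe set gave 12.43 and 12.54 in Cnot3KO livers, against 12.29 and 12.48 in Control livers. The livers of the groups overlapped, and the difference was 0.10 ± 0.17 with a 95% interval from -0.33 to 0.53 (adjusted p = 0.718). A change of Cps1 of 2-fold in either direction lies outside that interval.

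Nags makes N-acetylglutamate, the activator without which Cps1 does not work. It gave 6.87 and 8.33 in Cnot3KO livers, against 7.17 and 7.66 in Control livers. The Cnot3KO livers were the lowest and the highest of the 4, and the gap of 1.45 between them was the widest within a group among the members. The difference of 0.19 ± 0.49 had an interval from -1.05 to 1.42 (adjusted p = 0.826), so a 2-fold difference in either direction lies within it. Without Cnot3KO replicate 2 the difference was -0.54.

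Otc, the X-linked ornithine carbamoyltransferase, was the member with 3 probe sets, and all 3 were lower in Cnot3KO livers with no overlap between the groups. The brightest, 1420525_a_at, gave 10.56 and 10.78 in Cnot3KO livers, against 11.04 and 11.29 in Control livers. Its difference was -0.49 ± 0.19 (adjusted p = 0.145), which did not pass the test. Probe set 1436615_a_at gave 8.31 and 8.30 in Cnot3KO livers, against 9.82 and 9.69 in Control livers. That difference of -1.45 ± 0.16 was called (adjusted p = 0.00923), a level 2.74-fold lower, and it stayed called with each array left out in turn. The dimmest, 1425540_at, gave 5.26 and 5.58 in Cnot3KO livers, against 5.79 and 6.08 in Control livers, with a difference of -0.51 ± 0.20 (adjusted p = 0.161). The intervals of the bright and the called probe set did not overlap, running from -0.96 to -0.03 for 1420525_a_at and from -1.86 to -1.05 for 1436615_a_at. The size of the Otc difference therefore depended on the probe set, and the mean of the 3 gave -0.82 (adjusted p = 0.0252), which is called.

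Ass1, argininosuccinate synthase, brings the second nitrogen of urea into the cycle from aspartate. The probe set that names it alone, 1459937_at, gave 4.91 and 4.32 in Cnot3KO livers, against 6.86 and 6.59 in Control livers. Both Cnot3KO livers were well under both Control livers, and the difference of -2.11 ± 0.25 was called lower (adjusted p = 0.0106), which is 4.31-fold. With Control replicate 1 left out the difference was -1.97 and no longer called (adjusted p = 0.0574). A second probe set, 1416239_at, names Ass1 together with Gm5424 and is no member, since its signal cannot be assigned to 1 of them. It was the brighter of the 2, with a Control mean of 11.08, against 6.72 for 1459937_at. It gave 10.81 and 11.47 in Cnot3KO livers, against 10.60 and 11.55 in Control livers. The groups overlapped fully there, and the difference was 0.06 ± 0.39 with an interval from -0.91 to 1.03 (adjusted p = 0.928). The interval of the probe set naming Ass1 alone ran from -2.74 to -1.47 and did not meet it. Which part of the Ass1 transcript each probe set reads is not given in the sources used here. A fall of the Ass1 mRNA as a whole therefore rests on 1 of the 2 probe sets, the dimmer one.

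The bases before the RefSeq start sites of the 2 members with a called probe set, and of Glul on the glutamine side, are shown for reference (GRCm38.p6, 5′ to 3′, 250 bases each). The windows lie at chrX:10252055-10252304 (plus strand) for Otc, chr2:31470020-31470269 (plus strand) for Ass1 and chr1:153899679-153899928 (plus strand) for Glul. Capitals mark the CCAAT box.
Otc: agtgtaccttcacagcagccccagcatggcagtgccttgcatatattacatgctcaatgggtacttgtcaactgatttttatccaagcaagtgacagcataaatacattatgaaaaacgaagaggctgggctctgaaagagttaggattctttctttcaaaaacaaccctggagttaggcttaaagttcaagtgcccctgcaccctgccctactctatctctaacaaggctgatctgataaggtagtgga
Ass1: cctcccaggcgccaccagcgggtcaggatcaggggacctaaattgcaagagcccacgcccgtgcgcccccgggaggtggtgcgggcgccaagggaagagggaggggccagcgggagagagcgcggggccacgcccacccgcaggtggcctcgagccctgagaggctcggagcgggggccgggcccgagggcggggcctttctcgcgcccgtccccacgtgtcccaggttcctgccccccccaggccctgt
Glul: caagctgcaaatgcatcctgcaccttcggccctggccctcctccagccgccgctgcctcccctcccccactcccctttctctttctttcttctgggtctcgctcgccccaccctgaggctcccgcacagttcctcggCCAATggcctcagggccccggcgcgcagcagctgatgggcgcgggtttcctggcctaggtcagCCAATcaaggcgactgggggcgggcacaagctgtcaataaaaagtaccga
On both strands of the full windows, which reach 50 bases past the start, 7 motifs were searched: TTGCNNAA (core of C/EBP sites), AAAGTCCA (Hnf4), TGACGTCA (cAMP response element) and its shorter core TGACG, which lies within it, AGAACA (the core of glucocorticoid receptor sites), TATAAA and CCAAT. None of these letters occurs in the window of Otc or of Ass1. Glul holds CCAAT 2 times, at bases -113 to -109 and -50 to -46 from the start, and 37.4% of all 32851 windows hold CCAAT at least 1 time. The shares of all windows with the other motifs were 10.8% for TTGCNNAA, 1.25% for AAAGTCCA, 1.79% for TGACGTCA, 20.8% for TGACG, 19% for AGAACA and 13.6% for TATAAA. Of the members, 5 of 9 were matched by symbol to a window (Otc, Ass1, Nags, Slc25a15 and Slc25a13).

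Asl, argininosuccinate lyase, was the only member above its Control livers on both Cnot3KO arrays. It gave 10.79 and 11.30 in Cnot3KO livers, against 10.19 and 10.54 in Control livers. The difference of 0.68 ± 0.25 had an interval from 0.06 to 1.29 but did not pass the test over all probe sets (adjusted p = 0.135). With an array left out it ranged from 0.42 without Cnot3KO replicate 2 (adjusted p = 0.48) to 0.94 without Cnot3KO replicate 1 (adjusted p = 0.146). Ass1 and Asl act one after the other. The probe set naming Ass1 alone differed by -2.11, opposite in sign to Asl. The brighter probe set shared by Ass1 and Gm5424 gave 0.06 (adjusted p = 0.928), so the opposite sign was not seen there.

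Arg1, the cytosolic arginase, gave 12.12 and 12.49 in Cnot3KO livers, against 11.85 and 12.21 in Control livers. The groups overlapped, and the difference was 0.28 ± 0.22 with an interval from -0.28 to 0.83 (adjusted p = 0.435). Arg1 is also made by some activated macrophages. Of 13 macrophage and Kupffer cell markers 5 were called higher and 1 lower, and their summed linear level was 3538 and 3814 in Cnot3KO livers and 1980 and 1888 in Control livers. The part of these cells in the Arg1 level was not tested.

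The 2 carriers among the members link the mitochondrial and cytosolic steps of the cycle. Slc25a15 carries ornithine in and citrulline out. Its brighter probe set, 1420967_at, gave 10.01 and 10.28 in Cnot3KO livers, against 10.17 and 10.73 in Control livers, a difference of -0.31 ± 0.25 (adjusted p = 0.435). Its other probe set, 1420966_at, gave 6.53 and 7.13 in Cnot3KO livers, against 5.87 and 6.89 in Control livers, a difference of 0.45 ± 0.39 (adjusted p = 0.478). The 2 probe sets differed in sign and neither was called. Slc25a13, the liver carrier that brings aspartate out of the mitochondrion for Ass1, gave 8.97 and 9.52 in Cnot3KO livers, against 9.27 and 9.62 in Control livers. The groups overlapped, with a difference of -0.20 ± 0.25 and an interval from -0.84 to 0.44 (adjusted p = 0.626).

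**Figure D2:**
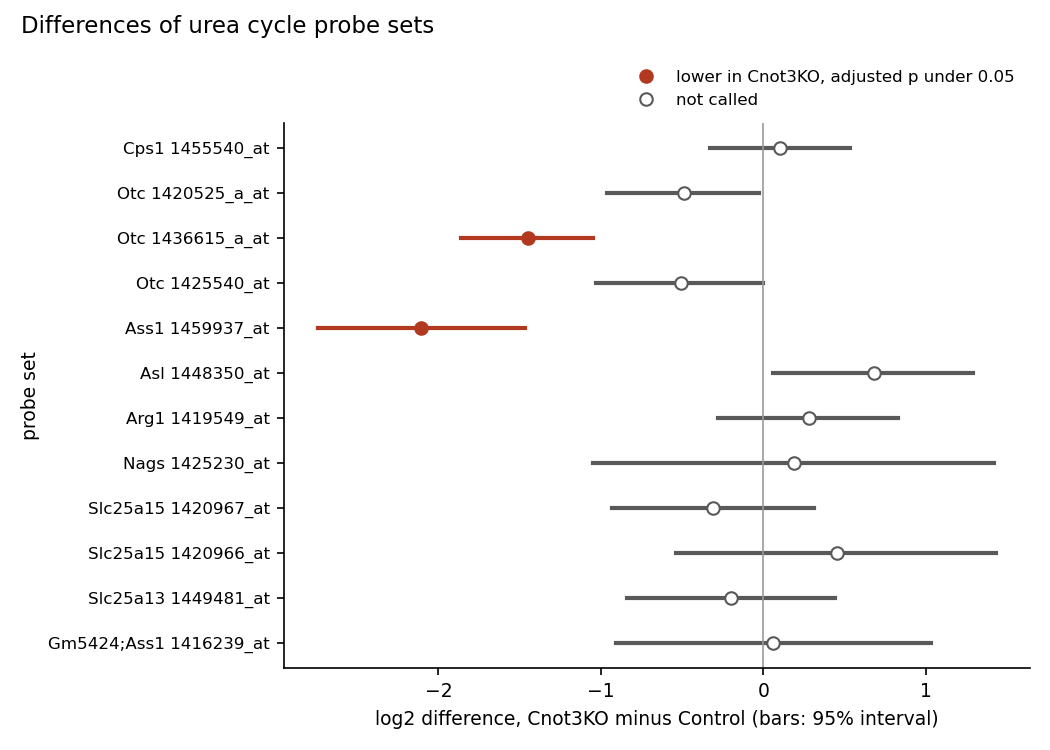
Log2 difference, Cnot3KO minus Control, of each urea cycle probe set (horizontal axis, points) with its 95% interval from limma (bars), 2 livers per group. The bottom row is the probe set shared by Ass1 and Gm5424, which is no member (0.06, interval from -0.91 to 1.03). Filled red points mark the probe sets called lower, Otc 1436615_a_at at -1.45 and Ass1 1459937_at at -2.11, and the intervals of Cps1, Arg1, Nags, Slc25a15 and Slc25a13 include 0.

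Of all genes 4.64% were called lower and 12.2% higher, and these shares are the background for the counts of each list below as well. Over 92 measured genes of ammonia and amino nitrogen handling other than the members, 9 were called lower (9.78%) and 8 higher (8.7%), with a median difference of -0.16. These counts lie above the background for lower calls and below it for higher calls among all genes, and with an array left out they ranged from 2 to 8 lower and from 4 to 7 higher, the lowest counts being 2 lower without Control replicate 1 and 4 higher without either Cnot3KO replicate.

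Of 4 measured isozymes and carrier partners of the members, 2 were called higher and 0 lower by limma, with the same counts without adjustment and a median of 1.07. Slc25a12, the aspartate and glutamate carrier typical of muscle and brain, gave 7.04 and 7.11 in Cnot3KO livers, against 4.67 and 5.49 in Control livers, a difference of 2.00 ± 0.30 (adjusted p = 0.0164). That is 3.99-fold higher, whereas its liver counterpart Slc25a13 was not called. The other 2 Slc25a12 probe sets gave -0.11 and 0.14 and were not called. They lay at 2.69 to 3.02 and at 2.12 to 2.31 over the arrays, under the array medians of 3.09 to 3.14. The mean of the Slc25a12 probe sets, which includes these dim ones, gave 0.68 (adjusted p = 0.0601). Arg2, the mitochondrial arginase found mainly outside the liver, gave 3.46 and 3.50 in Cnot3KO livers, against 2.07 and 1.71 in Control livers, a difference of 1.59 ± 0.19 (adjusted p = 0.0106). The Control values lay close to the filter level of their arrays (1.64 and 1.69, with array medians of 3.11 and 3.14), so Arg2 is not shown above background in Control livers and the size of its difference is uncertain. A filter on means above the 50th percentile left no value for it. Its other probe set was not called (0.56, adjusted p = 0.151). Cad, whose own carbamoyl phosphate serves pyrimidine synthesis, differed by 0.56 (adjusted p = 0.315), with 0.08 and 1.04 when Control replicate 1 and Control replicate 2 were left out, and Slc25a2, a second ornithine carrier, by -0.16 (adjusted p = 0.537). Differences between isozymes in their response were not tested.

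Beside Cps1, 1 of 6 genes for its bicarbonate, its deacylation and related mitochondrial carriers was called. Car5a, the mitochondrial carbonic anhydrase that supplies bicarbonate to Cps1, gave 6.14 and 6.79 in Cnot3KO livers, against 8.28 and 8.25 in Control livers. It was 3.47-fold lower, at -1.79 ± 0.25 (adjusted p = 0.0148), but leaving out Control replicate 1 or 2 gave an adjusted p of 0.071 or 0.0563, above the threshold. The second mitochondrial form, Car5b, gave 0.57 (adjusted p = 0.133). Sirt5, which removes acyl groups from Cps1, differed by 0.22 and Slc25a22, a mitochondrial glutamate carrier, by 0.08, and neither was called.

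Of 8 other genes on the aspartate and fumarate side, limma called 2 higher and 0 lower (3 and 1 without adjustment), with a median of 0.74. Fh1, which hydrates the fumarate that Asl releases, gave 11.01 and 11.39 in Cnot3KO livers, against 10.17 and 10.32 in Control livers (0.96 ± 0.20, adjusted p = 0.0374). Mdh2, the mitochondrial malate dehydrogenase, gave 11.25 and 11.23 in Cnot3KO livers, against 10.56 and 10.23 in Control livers (0.84 ± 0.19, adjusted p = 0.0431). Fh1 and Mdh2 both lost their call without any 1 of the 4 arrays, with an adjusted p of 0.076 to 0.171 for Fh1 and 0.064 to 0.183 for Mdh2, and Fh1 lost it when arrays were centred on ribosomal protein genes (adjusted p = 0.0519) and Mdh2 when they were centred on plasma protein genes (adjusted p = 0.0699). The aminotransferases that make aspartate gave 0.89 for the cytosolic Got1 and -0.03 for the mitochondrial Got2, and neither was called.

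**Figure D3:**
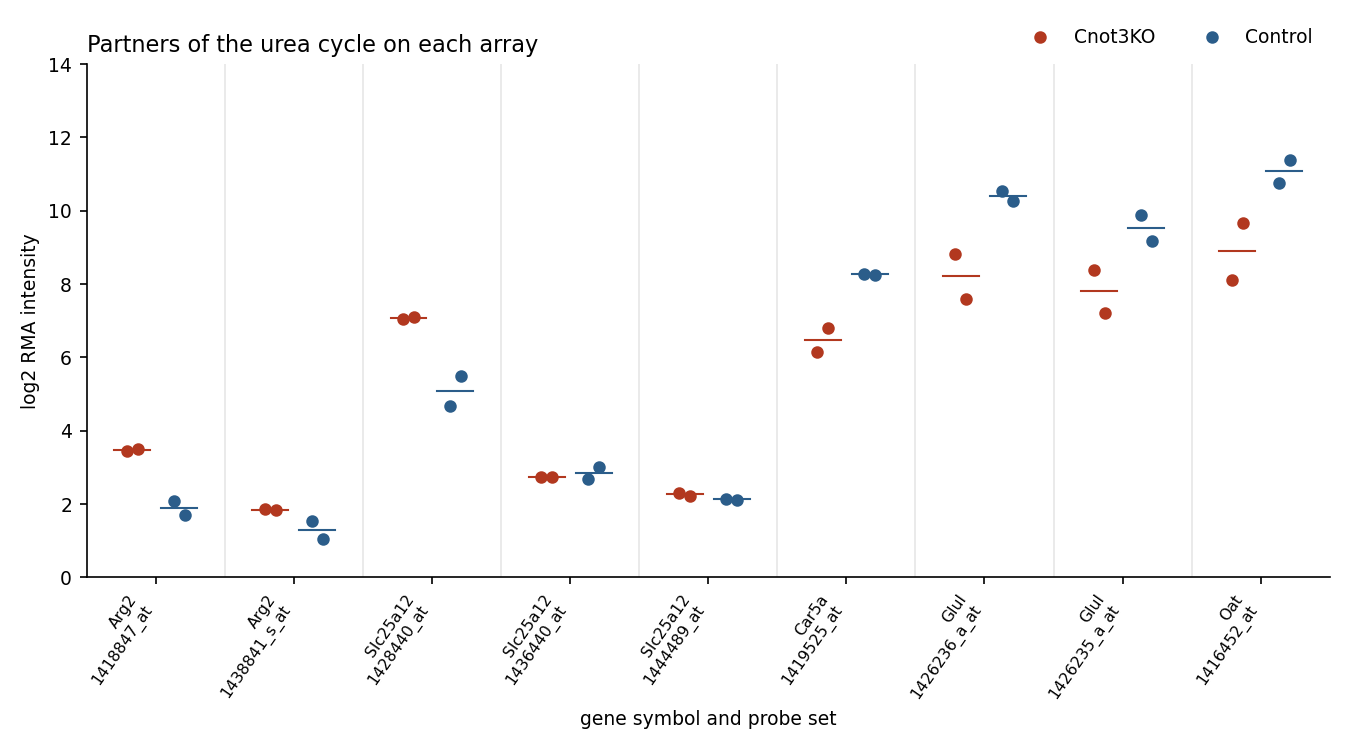
Log2 RMA intensity (vertical axis) of all probe sets naming Arg2, Slc25a12, Car5a, Glul or Oat on the 4 arrays, Cnot3KO livers left in red and Control livers right in blue, with a line at each group mean. Glul, Car5a and Oat lay lower on both Cnot3KO arrays than on both Control arrays, and of the 3 Slc25a12 probe sets only 1428440_at was called higher.

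On the glutamine side limma called 3 of 12 genes lower and 0 higher (at an unadjusted p under 0.05, 6 and 1), with a median of -0.48. Glul, glutamine synthetase of the hepatocytes around the central vein, gave 8.82 and 7.60 in Cnot3KO livers, against 10.53 and 10.26 in Control livers. The fall of 2.18 on the log2 scale (SE 0.41) was called (adjusted p = 0.0292) and is 4.54-fold. Its other probe set gave -1.73 (adjusted p = 0.0621), and the first was -2.79 without Cnot3KO replicate 1 and -1.57 without Cnot3KO replicate 2, and missed the threshold with Control replicate 1 or 2 left out, at an adjusted p of 0.122 and 0.0864. Slc1a2, a glutamate transporter of the same hepatocytes, gave 3.40 and 3.70 in Cnot3KO livers, against 8.60 and 7.18 in Control livers. Its difference of -4.34 ± 0.47 (adjusted p = 0.00878) is 20.2-fold and stayed called with each array left out, at -3.63 without Control replicate 1 and -5.05 without Control replicate 2. A second of its 5 probe sets was also called lower (-2.67, adjusted p = 0.00422). The remaining ones were dim, with group means of 1.29 to 2.59, under the array medians of 3.09 to 3.14. The mean of the 5 gave -1.73 (adjusted p = 0.00804), so the size of the Slc1a2 difference depended on the probe set. Slc38a2, an uptake system for glutamine and other neutral amino acids, gave 8.40 and 7.81 in Cnot3KO livers, against 10.29 and 9.65 in Control livers (-1.87 ± 0.31, adjusted p = 0.0211). That call was lost without Cnot3KO replicate 2, at an adjusted p of 0.0556, and without Control replicate 1, at 0.0784, while a second of its 3 probe sets was called too (-1.46, adjusted p = 0.00968). Rhbg, an ammonium channel of the central vein hepatocytes, differed by -0.24 and was not called (adjusted p = 0.495).

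Oat, ornithine aminotransferase, draws ornithine out of the cycle in the hepatocytes around the central vein. It gave 8.12 and 9.67 in Cnot3KO livers, against 10.76 and 11.39 in Control livers. The Cnot3KO livers lay below both Control livers but differed from each other by 1.55, and the difference of -2.18 ± 0.53 just missed the threshold (adjusted p = 0.0559). It was called without Cnot3KO replicate 2 (-2.96, adjusted p = 0.00958) but not without Cnot3KO replicate 1 (-1.40, adjusted p = 0.0858), and the adjusted p was 0.127 and 0.177 when Control replicate 1 and Control replicate 2 were left out. Oat led the list of arginine, ornithine and proline metabolism, in which limma called 0 of 15 genes (at an unadjusted p under 0.05, 4 lower and 2 higher). Second in size there was Aldh18a1, which starts proline and ornithine synthesis from glutamate, at 1.55 ± 0.44 (adjusted p = 0.0771), and it was called without Control replicate 1 (2.21, adjusted p = 0.0364). Without Control replicate 2 it was 0.89 (adjusted p = 0.0806), and the mean of its probe sets gave 0.77 (adjusted p = 0.0913).

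Of 11 genes that release ammonia from amino acids 1 was called lower and 1 higher (9.09% each). The shares of all genes were 4.64% lower and 12.2% higher, and counts this small cannot be set apart from them. Asrgl1, which hydrolyses asparagine and isoaspartyl peptides, gave 7.45 and 7.08 in Cnot3KO livers, against 5.36 and 5.16 in Control livers (2.01 ± 0.20, adjusted p = 0.00748). Gcsh, the lipoyl carrier of the glycine cleavage system, gave 8.12 and 8.31 in Cnot3KO livers, against 9.41 and 9.37 in Control livers (-1.18 ± 0.17, adjusted p = 0.0152), but with Cnot3KO replicate 1 left out the adjusted p was 0.0851, and with Control replicate 1 left out 0.0622. Glud1, the mitochondrial glutamate dehydrogenase that frees ammonia for Cps1, differed by -0.26 and was not called (adjusted p = 0.329). Of 12 aminotransferases 1 was called lower (8.33%) and 2 higher (16.7%), which cannot be set apart from the shares of all genes either. Psat1, of serine synthesis, gave 6.33 and 6.34 in Cnot3KO livers, against 4.00 and 1.85 in Control livers (3.42 ± 0.67, adjusted p = 0.0324). The value of Control replicate 2 lay close to the filter level of its array (1.69, with an array median of 3.14), so the size of the Psat1 difference is uncertain. The alanine aminotransferases moved apart, with the cytosolic Gpt at 0.80 ± 0.16 (adjusted p = 0.033) and the mitochondrial Gpt2 at -1.30 ± 0.20 (adjusted p = 0.0173). The difference of Psat1 was 4.49 without Control replicate 1 and 2.34 without Control replicate 2. Without an array the adjusted p of Psat1 was 0.0759 without Cnot3KO replicate 1 and 0.0653 without replicate 2, that of Gpt2 was 0.0722 and 0.062 without the same arrays and 0.0575 without Control replicate 1, and that of Gpt lay between 0.0687 and 0.162 without any 1 array. The mean over a gene's probe sets was not called for Gpt (0.42, adjusted p = 0.105) or Psat1 (2.85, adjusted p = 0.0566).

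Among 16 transcription factors and receptors known to act on urea cycle genes, limma called 2 lower and 0 higher (at an unadjusted p under 0.05, 7 and 1), with a median of -0.47. Klf15, a factor of amino acid breakdown in fasting, gave 8.25 and 8.44 in Cnot3KO livers, against 9.75 and 9.75 in Control livers (-1.40 ± 0.17, adjusted p = 0.0104), and missed the threshold without Cnot3KO replicate 1 (adjusted p = 0.0523). Cebpb, a C/EBP factor of the acute phase and of gluconeogenesis, gave 9.78 and 9.47 in Cnot3KO livers, against 10.45 and 10.58 in Control livers (-0.89 ± 0.19, adjusted p = 0.0378), and lost its call without any 1 array (adjusted p = 0.0929 to 0.185). Its relative Cebpa differed by -0.76 (adjusted p = 0.137) and Hnf4a, a main regulator of hepatocyte genes, by -0.25 (adjusted p = 0.372).

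The cycle belongs to the periportal programme, and the other periportal genes showed no common direction. Of 15 measured periportal genes other than members 2 were called lower and 3 higher, with a median of 0.18. Aldh1b1, a mitochondrial aldehyde dehydrogenase, was highest at 2.14 ± 0.25 (adjusted p = 0.0102), followed by Cdh1, the gene of E-cadherin, at 1.20 ± 0.20 (adjusted p = 0.0208), whereas Pigr, the receptor that carries polymeric antibodies, was at -1.25 ± 0.19 (adjusted p = 0.0167). Ctsc, a lysosomal protease, was at 0.89 ± 0.20 (adjusted p = 0.0424). All 4 lost their call without Control replicate 1, with an adjusted p of 0.0571 for Aldh1b1, 0.0695 for Cdh1, 0.0592 for Pigr and 0.103 for Ctsc. Cdh1 and Pigr lost it without either Cnot3KO replicate too, and Ctsc without any 1 array (adjusted p = 0.0597 to 0.198 over these). Cdh1 and Pigr are also made by bile duct cells. Of 7 measured cholangiocyte markers limma called 5 higher and 0 lower (6 and 0 without adjustment). Their summed linear level was 1001 and 756 in Cnot3KO livers and 59 and 51 in Control livers. Prom1, at log2 9.20 and 9.06, made up the largest part of the Cnot3KO sums. Krt19, a keratin of duct cells, was 2.74-fold higher, and Krt7, another, was not called at 2.03-fold. The part of bile duct cells in the Cdh1 and Pigr values was not tested.

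Of 16 pericentral genes limma called 11 lower and 0 higher (12 and 0 without adjustment), with a median of -1.40. The 11 lower genes are 68.8% of the list, against 4.64% of all genes called lower. Beside Slc1a2 and Glul the largest differences were those of Rgn, the gene of regucalcin, at -3.33 ± 0.33 (adjusted p = 0.00748) and Cyp1a2, a cytochrome P450 of drug metabolism, at -2.72 ± 0.32 (adjusted p = 0.00985), the call of Cyp1a2 being lost without Control replicate 1 (adjusted p = 0.058). The members had a median of -0.05, the other periportal genes of 0.18 and the plasma protein genes of -0.03 in the same livers. The lists share livers and some genes, and the difference between lists was not tested.

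**Figure D4:**
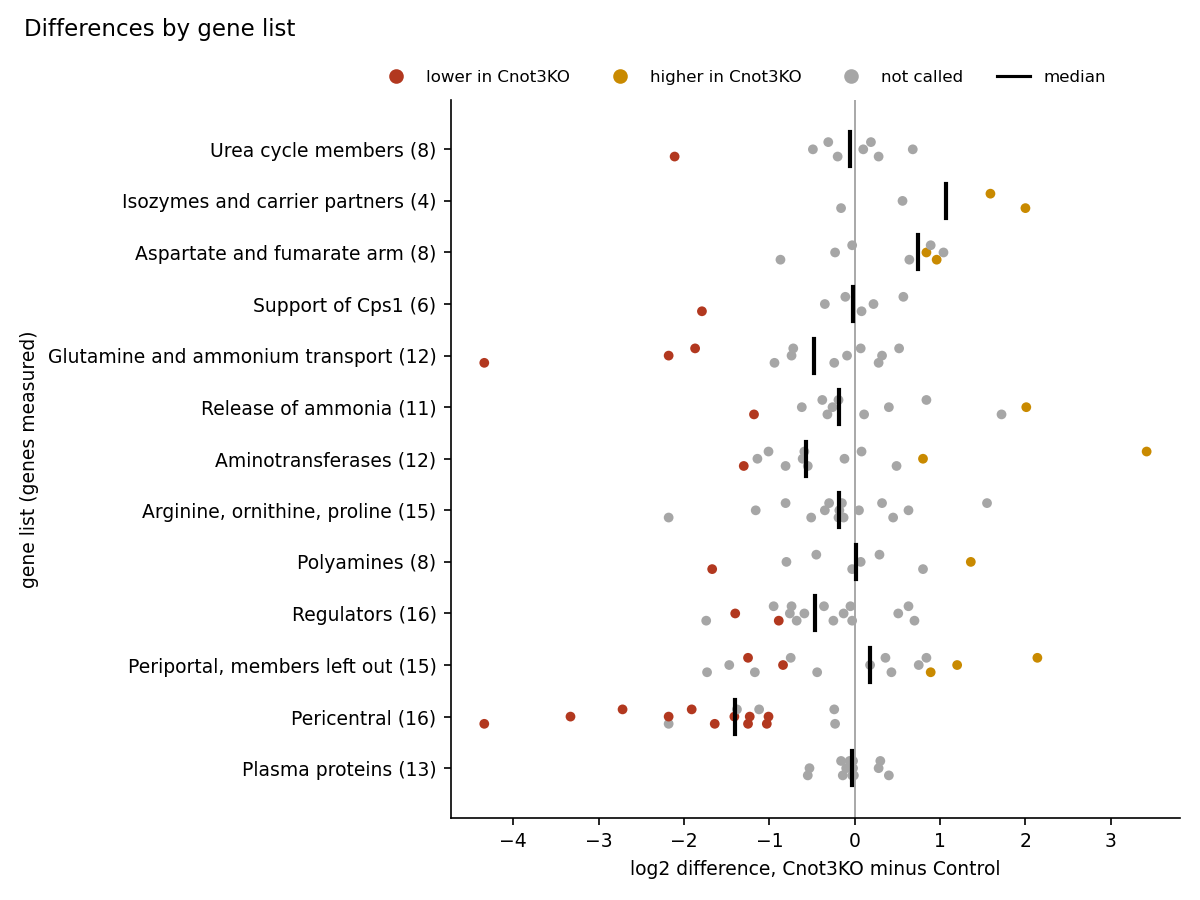
Log2 difference, Cnot3KO minus Control (horizontal axis), of each measured gene by list, with 1 point per gene and a black line at the list's median. Red points were called lower and orange points higher in Cnot3KO livers. Among the urea cycle members only Ass1 was called by the probe set that represents it, and the pericentral genes lie to the left of 0.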

How the data were processed

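Liver RNA was measured on 4 Affymetrix 3' expression arrays. The deposited table holds intensity values on the linear scale, computed by the authors by RMA (Robust Multi-array Average, version not given), and log2 was taken here. RMA equalizes the distribution of values across arrays, so an overall shift in RNA amount would not be seen. Probe sets above the 20th percentile of an array on at least 1 array were kept (38405 of 45037). Groups were compared in limma 3.58.1 (R 4.3.3; lmFit, then eBayes; 2-sided) with Benjamini-Hochberg adjustment over the kept probe sets and 5.40 total degrees of freedom. SE over kept probe sets had a median of 0.192 on the log2 scale, and the number of arrays limits the precision. A gene was represented by its kept probe set naming it alone with the highest mean. The labels do not say whether the livers of a group came from separate litters. The p-values rest on the spread between these livers and on a spread that limma estimates over all kept probe sets. That shared spread supplies 3.40 of the 5.40 total degrees of freedom.

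Probe sets were named from GEO's platform annotation, with 34945 naming 1 gene, 932 several and 9160 none. The members and lists were chosen with earlier results of these data known, and no list was tested as a set. Named are all member probe sets, the genes sharing a step with a member, and up to 4 called genes of each list by size of difference, or 2 where none was called. Got1, Got2, Car5b, Sirt5, Slc25a22, Glud1, Rhbg, Alb, Cebpa and Hnf4a were named for their role, with their values known. Genes that the rule takes from lists of controls and cell type markers were left out for space. Promoter windows (250 bases before to 50 after the start, GRCm38.p6) came from RefSeq. The fit was also run on simulated data. Their spread was drawn from the fit's own estimate, independently for each probe set, so that run is no support for the calls reported here. Alternatives were other filters, normalizations and centrings, the replicate number as a block, other priors, other thresholds, the methods' t-test, averaging over the probe sets of a gene, probe sets that can match several transcripts left out, and each array left out. Tables and figures were made in Python 3.11.15 (pandas 2.3.3, numpy 2.4.6, matplotlib 3.10.9).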

Additional observations from a re-analysis of the deposited data

How the results depend on the processing

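With 2 livers per group the 95% intervals ran from -0.33 to 0.53 for Cps1 and from -1.05 to 1.42 for Nags. The data do not tell apart the values inside such an interval, and the interval is not a limit of detection. The 2 called member probe sets and the 1 called member gene kept their count without a filter or with a stricter one, after a second quantile normalization, under each centring, with other priors and without probe sets that can match several transcripts. Counts of member probe sets called lower were 1 at an adjusted p under 0.01 and 0 by the methods' t-test after adjustment (2 lower and 0 higher at an unadjusted p under 0.05), and 1 to 2 with an array left out, 1 without Control replicate 1. Member genes called lower numbered 0 at 0.01, 0 by the t-test, 2 by averaging over probe sets, and 0 to 1 with an array left out. Pathway genes called lower numbered 14 when centred on ribosomal protein genes, 14 by the mean of probe sets, 18 at an adjusted p under 0.10, 1 at 0.01, 0 by the t-test and 2 to 8 with an array left out, and those called higher 1 at 0.01, 0 by the t-test (10 lower and 8 higher unadjusted) and 4 to 7 with an array left out. The cause of these moves was not tested, beyond the smaller number of samples where an array is left out.

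The replicate block gave 2 member probe sets, 1 member gene and 13 pathway genes lower and 8 pathway genes higher, and changed no call of a member. With it Mdh2, Cebpb, Ctsc and Cnot3 missed the threshold (adjusted p = 0.0517 to 0.0648) and Oat passed it (adjusted p = 0.0281). Centred on ribosomal protein genes, Gpt and Ctsc missed it too (adjusted p = 0.062 and 0.0533), while Oat and Aldh18a1 passed it (adjusted p = 0.0232 and 0.0348). The labels do not say whether equal replicate numbers mark a pair or a batch. Deviations of Cnot3KO replicate 1 and Control replicate 1 from their group means correlated at 0.23 over the kept probe sets. Whether same-numbered arrays share a batch was not tested.

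Some differences that were not called changed sign. Nags was -0.54 without Cnot3KO replicate 2 and -0.06 without Control replicate 1 (-0.54 to 0.91 with an array left out). Slc25a15 1420967_at was 0.07 by the mean of its probe sets, and 1420966_at ranged from -0.06 to 0.96 and Slc25a13 from -0.48 to 0.08 with an array left out. Rplp0 was -0.01 when centred on ribosomal protein genes and ranged from -0.11 to 0.25 with an array left out, and the probe set shared by Ass1 and Gm5424 was -0.02 under that centring and ranged from -0.41 to 0.54 with an array left out. No centring moved the median of all probe sets by over 0.1.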

Other observations

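Polyamines are made from the ornithine that arginase releases. Of 8 measured genes of polyamine metabolism 1 was called lower and 1 higher (12.5% each), with a median of 0.02. Of all genes 4.64% were called lower and 12.2% higher, and counts this small cannot be set apart from those shares. Azin1, which shields ornithine decarboxylase from its antizyme, gave 6.21 and 6.60 in Cnot3KO livers, against 8.20 and 7.95 in Control livers (-1.67 ± 0.21, adjusted p = 0.0118, and 0.0571 without Control replicate 1). Sat1, which acetylates spermidine and spermine for their export and breakdown, gave 10.10 and 9.84 in Cnot3KO livers, against 8.72 and 8.50 in Control livers (1.36 ± 0.19, adjusted p = 0.0142, but 0.0675 without Cnot3KO replicate 1 and 0.0502 without Control replicate 1). Odc1, ornithine decarboxylase itself, was named after its values were seen and differed by -0.80 (adjusted p = 0.139).

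Within each group most member probe sets were higher in 1 of the 2 livers. Replicate 2 was above replicate 1 for 9 of 11 member probe sets in Cnot3KO livers and for 9 of 11 in Control livers, with median gaps of 0.32 and 0.35. Over all kept probe sets the shares were 49.6% in Cnot3KO livers and 51.5% in Control livers, with median gaps of -0.00 and 0.01. The exceptions in both groups were the 2 called probe sets, Otc 1436615_a_at and Ass1 1459937_at. The numbers name separate livers, and the labels do not say whether equal numbers mark a pair. Of the 11 probe sets 3 name Otc and 2 name Slc25a15, so they are not independent, and each gap rests on 1 pair of livers. The pattern was noticed in these data and not tested.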
